A study of Rattus norvegicus with 22 samples.

Results

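Heat shock proteins and chaperones fold new proteins, refold damaged ones and hold others ready for use. The 10 genes described here are Hspa1b, Hspa5, Hspa8, Hsp90aa1, Hsp90ab1, Hspb1, Hsph1, Dnajb1, Hspd1 and Hspe1. They were chosen by their symbols, with earlier results of these data known. They are 10 of the 32883 genes in the count table, and each symbol matched 1 gene. RNA came from the ventral cervical spinal cord (C3-C6) of young adult Sprague-Dawley rats aged 3 to 4 months, perfused with saline. Each of the 22 libraries came from 1 rat. The groups were 5 intact males, 5 gonadectomised (GDX) males without testes, 6 intact females and 6 ovariectomised (OVX) females without ovaries. Operated rats were sampled 2 weeks after surgery and had received slow-release buprenorphine, an opioid for pain. The intact rats were of the same age, and no sham operation is described for them. Counted reads per library ran from 13008232 to 15558910 in intact males and from 14632278 to 16955037 in GDX males. They ran from 13374274 to 17530586 in intact females and from 12371756 to 17571887 in OVX females.

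The libraries were of 2 classes of average fragment size. All 5 GDX and all 6 OVX libraries were of the shorter class, as were intact males 2 and 5 and intact females 1 and 4. The other 7 libraries, intact males 1, 3 and 6 and intact females 2, 3, 5 and 6, were of the longer class. The longer class was thus found only in intact rats, so that within these 7 libraries surgery could not be compared. Intact male 6 was the highest of all 22 rats for 5 of the 10 genes (Hspa8, Hsp90ab1, Hspb1, Hsph1 and Hspd1). For Hspa8 it was almost level with intact male 3. How often this rat was the highest over all genes was not counted.

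The Hsp70 proteins, here the heat-inducible Hspa1b, the constitutive Hspa8 and the endoplasmic reticulum member Hspa5 (BiP), bind unfolded chains in a cycle driven by ATP. Dnajb1, an Hsp40 protein, starts that cycle, and Hsph1, an Hsp110 protein, helps to reset it by nucleotide exchange. The Hsp90 proteins act later and keep steroid hormone receptors able to bind their ligands, Hspb1 (Hsp27) is a small heat shock protein abundant in motor neurons, and Hspd1 (Hsp60) with Hspe1 (Hsp10) forms the folding chamber of mitochondria.

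Heat shock factors bind inverted repeats of GAA. Promoters from 250 bases before to 50 bases after the gene start (RefSeq, build GRCr8) were found for 8 of the 10 genes, with no entry for Hspa1b and Hsp90aa1. A heat shock element of 2 units was searched as GAANNTTC or TTCNNGAA. Each of these reads the same on both strands, and they may overlap by 3 bases. It was present in 6 of the 8 promoters, all but those of Hspa5 and Hsp90ab1, and in 15.9% of all 33469 promoters. An element of 3 units, GAANNTTCNNGAA or TTCNNGAANNTTC (each the reverse complement of the other), contains overlapping elements of 2 units. It was present in the promoters of Hspa8, Hsph1, Hspd1 and Hspe1 and in 0.798% of all promoters. The endoplasmic reticulum stress element, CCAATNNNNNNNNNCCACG or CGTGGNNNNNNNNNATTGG on the other strand, was present in the promoter of Hspa5 alone among the 8 and in 0.0657% of all promoters. These matches describe letters in the windows only.

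Below are 4 promoters, 5′ to 3′ on the strand of the gene, with the matched bases of the motifs in capitals. Hspa8 and Hspa5 are shown because their levels moved together across rats, Hspe1 because it shares its promoter with Hspd1, and Hspb1 because its level followed motor neuron genes. They lie in GRCr8 at chr8:50080264-50080563 (plus strand, Hspa8), chr3:38452766-38453065 (plus strand, Hspa5), chr9:64084077-64084376 (plus strand, Hspe1) and chr12:26432252-26432551 (minus strand, Hspb1).
Hspa8: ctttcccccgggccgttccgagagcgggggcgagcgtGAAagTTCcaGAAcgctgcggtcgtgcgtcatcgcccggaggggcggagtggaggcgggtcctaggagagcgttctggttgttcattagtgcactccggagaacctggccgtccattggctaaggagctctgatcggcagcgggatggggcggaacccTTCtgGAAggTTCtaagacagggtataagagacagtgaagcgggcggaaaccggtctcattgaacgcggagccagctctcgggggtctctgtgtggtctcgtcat
Hspa5: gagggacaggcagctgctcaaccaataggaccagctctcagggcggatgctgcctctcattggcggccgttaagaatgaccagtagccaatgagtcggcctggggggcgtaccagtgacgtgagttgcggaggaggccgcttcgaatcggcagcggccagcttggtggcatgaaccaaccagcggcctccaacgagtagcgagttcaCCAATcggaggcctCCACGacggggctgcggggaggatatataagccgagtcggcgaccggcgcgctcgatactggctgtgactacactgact
Hspe1: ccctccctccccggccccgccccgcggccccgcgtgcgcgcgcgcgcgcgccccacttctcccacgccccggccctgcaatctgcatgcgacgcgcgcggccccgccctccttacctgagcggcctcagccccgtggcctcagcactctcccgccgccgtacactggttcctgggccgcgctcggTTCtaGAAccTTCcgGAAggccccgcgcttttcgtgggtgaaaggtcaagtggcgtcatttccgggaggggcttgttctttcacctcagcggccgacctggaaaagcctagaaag
Hspb1: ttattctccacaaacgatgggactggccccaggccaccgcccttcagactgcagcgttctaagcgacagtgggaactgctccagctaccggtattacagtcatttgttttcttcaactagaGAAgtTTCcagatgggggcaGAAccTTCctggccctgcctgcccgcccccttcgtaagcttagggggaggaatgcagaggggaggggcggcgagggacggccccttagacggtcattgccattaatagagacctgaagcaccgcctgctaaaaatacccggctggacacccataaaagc

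The Hspa8 promoter holds an element of 3 units at -213 to -201 from the gene start and another at -55 to -43. The Hspa5 promoter holds its stress element at -43 to -25. The Hspb1 promoter holds elements of 2 units at -129 to -122 and at -109 to -102. Hspd1 and Hspe1 are transcribed in opposite directions from starts 290 bases apart, and their windows share 211 bases. The same run of 2 overlapping elements of 3 units lies at -65 to -48 of Hspe1 and at -242 to -225 of Hspd1 (chr9:64083988-64084287, minus strand).

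**Figure D1:**
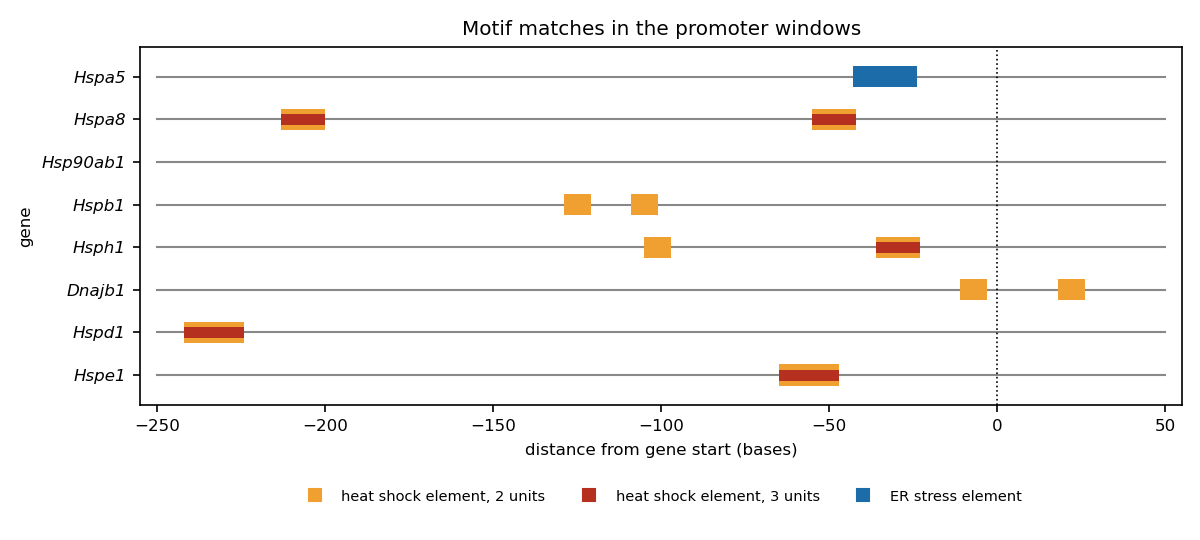
Motif matches in the promoters of the 8 genes with an entry, by distance in bases from the gene start. Elements of 3 units lie in Hspa8, Hsph1, Hspd1 and Hspe1, and the stress element lies in Hspa5.

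Levels are given as CPM (reads scaled to a common library size) after scaling for library composition. The 10 genes together took between 0.317% (GDX male 4) and 0.362% (intact male 6) of the scaled library. Hspa1b (ENSRNOG00000050647) was near the limit of detection, with 1 to 16 reads per library. Its mean level was 0.583 ± 0.279 CPM in OVX females (SD, n = 6), 0.521 ± 0.200 in intact females (n = 6), 0.429 ± 0.208 in intact males (n = 5) and 0.262 ± 0.147 in GDX males (n = 5). All neighbours in this order overlapped. Pooled over each group, the males had 32 reads of Hspa1b when intact and 20 after GDX, and the females 47 when intact and 53 after OVX. The pooled ratio was 0.574 for GDX to intact males (95% interval 0.311 to 1.03) and 1.14 for OVX to intact females (0.757 to 1.73). These exact binomial intervals cover counting error only, and within either sex no difference of Hspa1b was detectable at this depth. GDX males against OVX females, fitted without the filter, had a log2 fold change of -1.13 ± 0.49 for Hspa1b (SE, adjusted p = 0.586). Its 95% interval, from -2.16 to -0.10, excluded 0, while the rats of these groups overlapped. The close copy Hspa1a was not in the table, and how reads that match several genes were counted is not given in the sources used. The same limit touches other members, since GRCr8 names 33 pseudogenes of Hspa8, 23 of Hsp90ab1, 20 of Hspd1 and 16 of Hsp90aa1.

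The other members differed in how far they varied between rats. Hsp90ab1 (ENSRNOG00000019834) ran from 1435 CPM in GDX male 4 to 1675 CPM in intact male 6, and in the 6 intact females it ran only from 1609.8 to 1644 CPM. Its spread within groups (SD 0.044 on the log2 scale) was lower than that of all but 0.688% of 15562 expressed genes. Hsph1, Hspa8, Hspd1 and Hspa5 followed at percentiles 8.76, 12.3, 16.6 and 19.3 of the same order. Hspe1 lay at percentile 39.0, Dnajb1 at 56.6, Hspb1 at 62.4, Hsp90aa1 at 78.9 and Hspa1b at 94.0. These spreads were taken at unlike depths, with 20586 to 28544 reads per library for Hsp90ab1 and 192 to 472 for Hsp90aa1, and the part of depth was not tested. Hsp90aa1 (ENSRNOG00000007219), the inducible Hsp90, ran from 13.4 CPM in GDX male 1 to 29.0 CPM in OVX female 3.

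**Figure D2:**
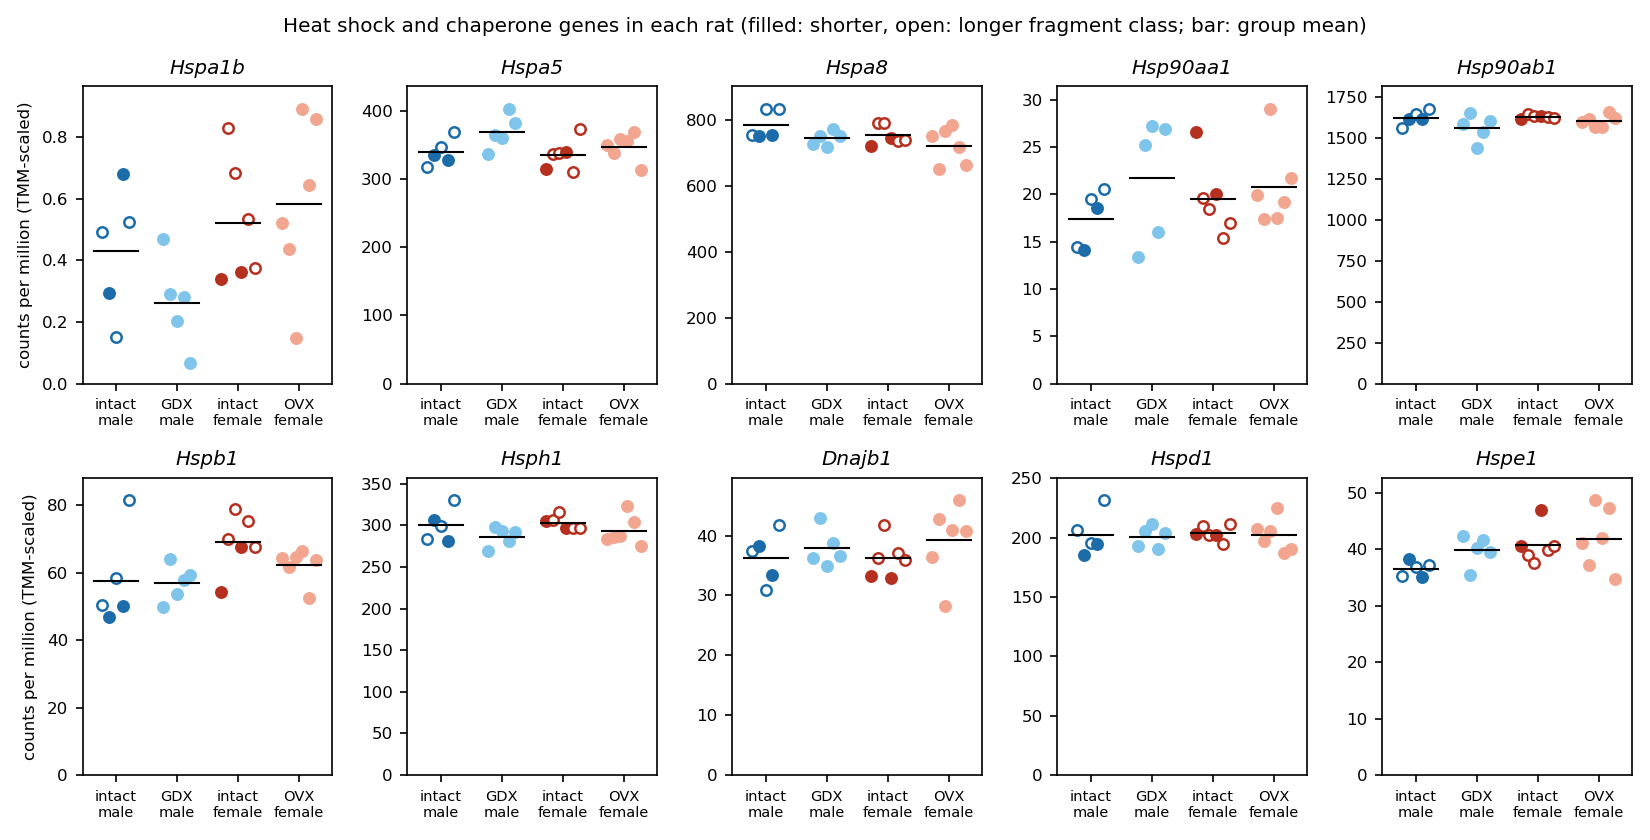
Level of each of the 10 genes in every rat, in CPM, by group. Points are rats (filled for the shorter and open for the longer fragment class) and lines are group means of 5 or 6 rats. The groups of every gene overlap.

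The first comparison asked which genes differed in males after removal of the testes. Of the 9 heat shock and chaperone genes tested, edgeR called 0 (adjusted p under 0.1), against 13.4% of all 14931 genes (6.78% higher, 6.58% lower). Hspa1b was below the filter on low counts. By edgeR 0 of the 9 had an unadjusted p under 0.05, with 23.8% of all genes, and by DESeq2 and the edgeR exact test 0 were called as well, with 2088 and 1952 of all genes. Fold changes of the 9 had a median of -0.014 on the log2 scale, with 0.0021 over all genes.

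The members with the smallest p were Hspa5 and Hspe1. Hspa5 (ENSRNOG00000018294), the chaperone of the endoplasmic reticulum, stood at 318, 336, 347, 329 and 369.7 CPM in intact males 1, 2, 3, 5 and 6 and at 338, 364, 360.4, 403 and 383 CPM in GDX males 1, 2, 4, 5 and 6, the order used for males throughout. GDX males 5 and 6 lay above every intact male, and the other 3 lay within the intact range. The mean was 339.9 ± 19.8 CPM in intact males and 369.7 ± 24.7 CPM in GDX males (SD, n = 5 each). The log2 fold change of Hspa5 was 0.12 ± 0.056 (SE, adjusted p = 0.214). This is a difference of 8.54% with a 95% interval from -0.0699% to 17.9%.

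Hspe1 (ENSRNOG00000051624), the lid of the mitochondrial chamber, stood at 35.3, 38.3, 36.9, 35.1 and 37.2 CPM in intact males and at 42.4, 35.5, 40.2, 41.6 and 39.5 CPM in GDX males. GDX male 2 was within the intact range and the other 4 were above all 5 intact males. The means were 36.6 ± 1.35 and 39.8 ± 2.67 CPM (SD, n = 5 each), and the log2 fold change of Hspe1 was 0.12 ± 0.057 (SE, adjusted p = 0.218). Hspd1 (ENSRNOG00000014525), which forms the chamber itself, had means of 202 ± 17.8 and 201 ± 9.001 CPM. Its log2 fold change was -0.016 ± 0.057 (adjusted p = 0.903). With fragment class as a term Hspd1 was at 0.078, and without intact male 6 at 0.034, so that its sign was not settled. The difference between Hspd1 and Hspe1 was not tested.

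Hsp90aa1 had the largest fold change of the 9. It stood at 14.4, 14.2, 19.5, 18.5 and 20.6 CPM in intact males and at 13.4, 25.3, 27.2, 16.0 and 26.9 CPM in GDX males. In GDX rats 2, 4 and 6 it was above every intact male, while GDX male 1 was below them all. The log2 fold change was 0.32 ± 0.18 (SE, adjusted p = 0.306), a difference of 24.7% with a 95% interval from -4.37% to 62.5%. Without GDX male 1, Hsp90aa1 was called (log2 fold change 0.45, adjusted p = 0.0663), and so was Hspa5 (0.15, adjusted p = 0.0910). With other terms Hspa5 moved both ways. It was nearer 0 at 0.065 with RNA integrity number (adjusted p = 0.548) and at 0.0094 with the meninges and fibroblast mean (adjusted p = 0.995). That mean was itself higher in GDX males, and with it the SE of Hspa5 was 0.10, against 0.056 without it. Hspa5 was at 0.15 with fragment class (adjusted p = 0.294) and with the shorter class only (adjusted p = 0.300). With the replicate block it was at 0.13 (adjusted p = 0.205) and with the motor neuron mean at 0.12 (adjusted p = 0.152). Without GDX male 2, Hspe1 was called (0.16, adjusted p = 0.0826). With the meninges and fibroblast mean as a term Hspe1 was at 0.067 ± 0.11 (SE, adjusted p = 0.959). Over the 10 fits that leave out 1 rat, 0 to 2 members were called.

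Hspb1 (ENSRNOG00000023546) stood at 50.4, 46.7, 58.5, 50.03 and 81.4 CPM in intact males and at 49.96, 64.1, 53.6, 57.9 and 59.4 CPM in GDX males. Intact male 6 was far above the others. The log2 fold change was -0.014 ± 0.12 (SE, adjusted p = 0.964). With GDX and intact males of the shorter class only (5 and 2 libraries) it was 0.23 ± 0.092 (adjusted p = 0.212), and without intact male 6 it was 0.14 (adjusted p = 0.306). In intact males the mean of Hspb1 was 48.4 CPM in the 2 libraries of the shorter class and 63.4 CPM in the 3 of the longer class, and in intact females 61.0 CPM (2 libraries) and 73.0 CPM (4 libraries). Since the longer class was found only in intact rats, its part in these means and that of intact gonads can be told apart only through the few intact rats of the shorter class.

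The remaining members were not called either. Hspa8 (ENSRNOG00000034066) had a log2 fold change of -0.081 ± 0.046 (adjusted p = 0.311), from 785 ± 43.6 to 744 ± 22.5 CPM. It was at -0.021 with fragment class as a term and at -0.020 with the shorter class only. Hsp90ab1, Hsph1 (ENSRNOG00000000902) and Dnajb1 (ENSRNOG00000021824) had log2 fold changes of -0.059, -0.070 and 0.058, with adjusted p values of 0.452, 0.441 and 0.717. With 1 rat left out these ran from -0.080 to -0.031, from -0.094 to -0.036 and from 0.0056 to 0.11. The 95% interval ran from -10.0% to 2.40% for Hsp90ab1 and from -9.07% to 7.61% for Hspd1, so that the test does not show equal levels.

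**Figure D3:**
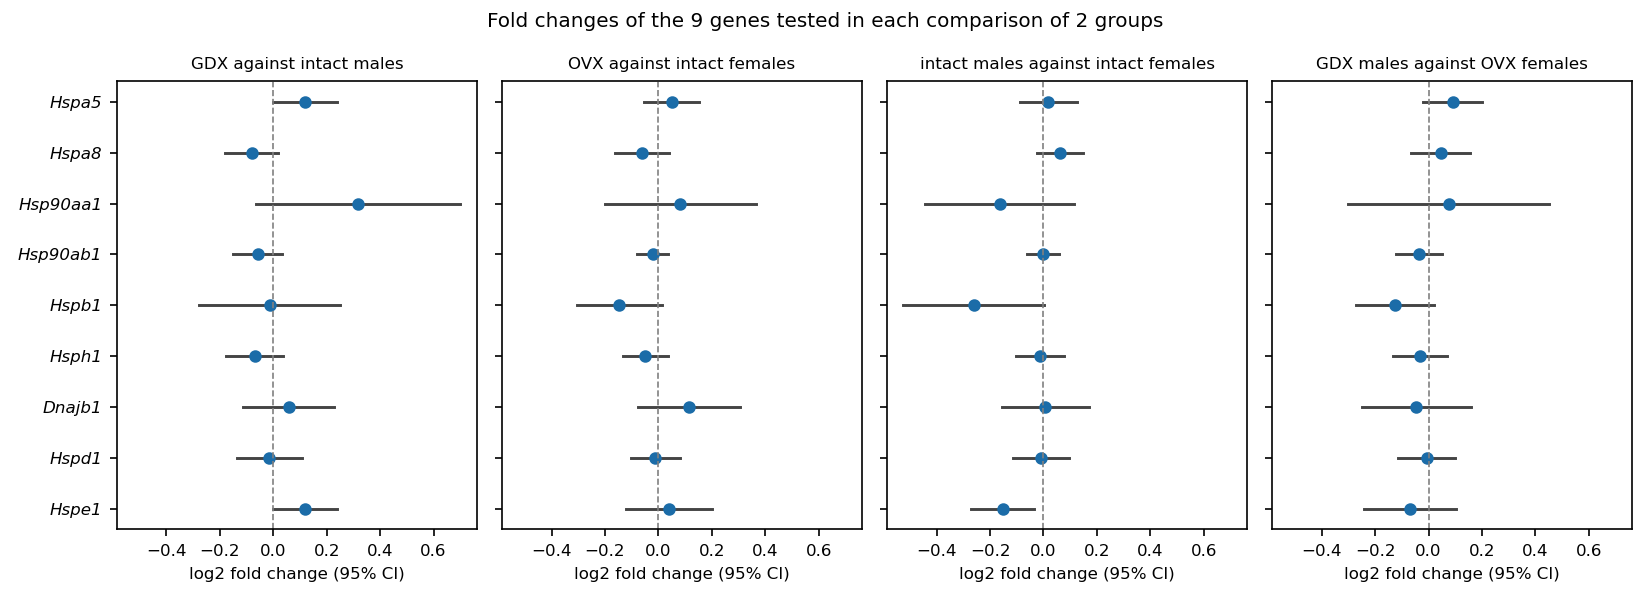
Log2 fold change of the 9 tested genes in the 4 comparisons of 2 groups (panels), as points with 95% intervals from edgeR. Every interval includes 0 except that of Hspe1 in intact males against intact females, where Hspe1 was not called.

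The second comparison asked the same of females after removal of the ovaries. Of the 9 members tested 0 were called by edgeR, against 0.0335% of all 14910 genes (5 genes), and 0 had an unadjusted p under 0.05, with 10.2% of all genes. DESeq2 and the exact test called 0 members, with 174 and 95 of all genes. Hspb1 had the smallest p of the members. It had a lowest, median and highest level of 54.4, 68.8 and 78.9 CPM in intact females and of 52.6, 64.0 and 66.4 CPM in OVX females. The 6 OVX females thus lay within or below the range of the intact ones, and the groups overlapped. The log2 fold change was -0.15 ± 0.076 (SE, adjusted p = 0.535), a difference of -9.64% with a 95% interval from -19.1% to 0.922%. With libraries of the shorter class only (6 and 2), it was 0.027 (adjusted p = 0.972).

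For Hsp90ab1, the most even member, the female log2 fold change was -0.022 ± 0.028 (adjusted p = 0.859), with a 95% interval from -5.41% to 2.57%. Hsp90aa1 was at 0.082 ± 0.13 (adjusted p = 0.901), with an interval from -13.0% to 28.8%. It was at -0.18 with fragment class as a term or the shorter class only and at -0.094 with the motor neuron mean as a term, so that its sign was not settled. Dnajb1, the Hsp40 starter of the Hsp70 cycle, was at 0.11 ± 0.090 (adjusted p = 0.733), with 36.2 ± 3.21 CPM in intact and 39.2 ± 6.18 CPM in OVX females (SD, n = 6 each). With fragment class as a term its log2 fold change was 0.24 (adjusted p = 0.724). Hspa8, Hspa5 and Hsph1 had log2 fold changes of -0.062, 0.051 and -0.048, with adjusted p values of 0.721, 0.792 and 0.745. Those of Hspd1 and Hspe1 were -0.012 and 0.039 (adjusted p = 0.961 and 0.922).

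The third comparison set intact males against intact females. Of the 9 members 0 were called by edgeR, against 4.01% of all 14937 genes (1.45% higher in males, 2.56% lower), and 1 had an unadjusted p under 0.05, with 15.5% of all genes. DESeq2 and the exact test called 0, with 811 and 685 of all genes. The member with the smallest p was Hspe1, at 35.3, 38.3, 36.9, 35.1 and 37.2 CPM in intact males, and with a lowest, median and highest level of 37.5, 40.2 and 46.9 CPM in intact females. The groups overlapped in a narrow band, with intact male 2 above the lowest female. The log2 fold change was -0.15 ± 0.055 (SE, adjusted p = 0.186), a difference of -10.1% with a 95% interval from -17.1% to -2.41%. With 1 rat left out it ran from -0.18 (without intact female 3) to -0.11 (without intact female 4, the highest female). It was -0.25 with the shorter class only and -0.070 with the meninges and fibroblast mean as a term. Hspb1, singled out after its values were seen, was called when intact male 6 was left out (log2 fold change -0.42 ± 0.088, adjusted p = 0.0336). With all rats its log2 fold change was -0.26 ± 0.12 (adjusted p = 0.325), from 69.0 ± 8.43 CPM in intact females (n = 6) to 57.4 ± 14.1 CPM in intact males (n = 5).

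The operated groups, GDX males and OVX females, shared 1 fragment class. Of the 9 members 0 were called by edgeR, against 0.232% of all 15084 genes (35 genes), and 0 had an unadjusted p under 0.05, with 9.37% of all genes. DESeq2 and the exact test called 0, with 136 and 88 of all genes. By DESeq2, which tested Hspa1b as well, 1 member (Hspa1b) had an unadjusted p under 0.05. Hspb1 had the smallest p of the 9, Hspa1b being below the filter, with 57.0 ± 5.42 CPM in GDX males (n = 5) and 62.2 ± 4.94 CPM in OVX females (n = 6). Its log2 fold change was -0.13 ± 0.068 (adjusted p = 0.593). With 1 rat left out it ran from -0.17 (without GDX male 2) to -0.080 (without GDX male 1).

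The interaction asked whether the effect of gonad removal differed between the sexes, over all 22 rats. Of the 10 members, all tested here, 0 were called by edgeR, against 0.116% of 15562 genes (18 genes). None had an unadjusted p under 0.05, with 11.6% of all genes, and DESeq2 called 0, with 247 of all genes. Hspa1b had the smallest p, with a log2 difference, male effect minus female effect, of -0.89 ± 0.61 (adjusted p = 0.604, 95% interval -2.15 to 0.37). The male and female effects on any member were thus not shown to differ.

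The ranges of the groups overlapped for every member. The highest group mean of Hspa1b was 2.23 times the lowest, at 16 reads or fewer. From high to low, Hspa5 and Hsp90aa1 both ran GDX males, OVX females and then the intact groups, with the highest mean 1.10 and 1.25 times the lowest. Hspa8 ran intact males, intact females, GDX males and OVX females, with a ratio of 1.09. Hsp90ab1, Hsph1 and Hspd1 shared 1 order, intact females, intact males, OVX females and GDX males, with ratios of 1.04, 1.06 and 1.02. The mean levels of these 3 genes were thus close in all 4 groups. Hspb1 ran intact females, OVX females, intact males and GDX males, with a ratio of 1.21. For Hspe1 the order was OVX females, intact females, GDX males and intact males (1.15), and for Dnajb1 it was OVX females, GDX males, intact males and intact females (1.08).

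Within groups, rats differed from their group mean in ways that some members shared. Of the 45 pairs of members, 33 had a positive Pearson correlation over the 22 rats, with a median r of 0.141 and a range from -0.500 to 0.602. Hspa5 and Hspa8, the Hsp70 proteins of the reticulum and the cytosol, had r = 0.597 (permutation p = 0.00348, adjusted 0.124) and rho = 0.680 (permutation p = 0.00099, adjusted 0.0248). Without the 2 rats farthest from the median, r was 0.643. Within the 15 shorter libraries r was 0.677, and within the 7 longer ones 0.419. The relation between Hspa8 and Hspb1 was alike, with r = 0.541 (permutation p = 0.0055, adjusted 0.124) and rho = 0.667 (permutation p = 0.0011, adjusted 0.0248). Without 2 rats r was 0.607, in the shorter libraries 0.449 and in the longer ones 0.615. These 2 pairs had the lowest adjusted p of the 45 by either measure, below 0.05 by rank and above 0.1 by Pearson's r.

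Hspd1 and Hspe1, whose products work as 1 machine and whose promoters overlap, had r = -0.0326 (permutation p = 0.902, adjusted 0.981) and rho = -0.0954 (permutation p = 0.697, adjusted 0.857). Without 2 rats r was -0.106. In the shorter libraries r was -0.0499 and in the longer ones 0.379. The pair thus did not vary together across rats in a way these data could show. With means taken in the shorter libraries alone, 23 of 45 pairs were positive and the median was 0.0239.

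**Figure D4:**
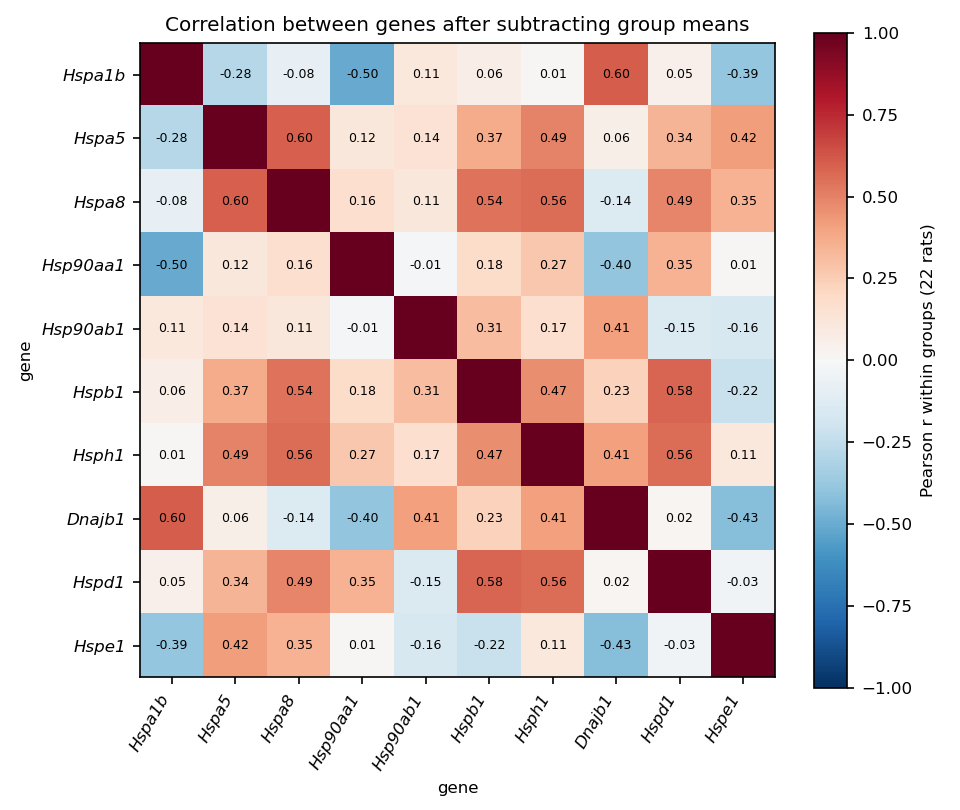
Pearson correlation of each pair of the 10 genes across 22 rats, after subtraction of group means from log2 CPM. Hspa5 with Hspa8 (0.597) and Hspa8 with Hspb1 (0.541) are positive, and Hspd1 with Hspe1 is near 0.

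Hspb1 is known for its abundance in motor neurons, and its level followed a list of 12 motor neuron genes. The relation was singled out after its values were seen. Each rat's Hspb1 was set against the mean log2 level of the list, both as differences from the group mean. Over 22 rats r was 0.857 (permutation p = 0.0002, adjusted over 120 relations of members to cell type lists 0.024) and rho was 0.647 (permutation p = 0.00346, adjusted 0.281). It was the only relation of the 120 with an adjusted p under 0.05 by Pearson's r, and none passed by rank. Without the 2 rats farthest from the median, intact male 6 and intact female 1, r was 0.719. It was 0.888 in the 15 shorter libraries, 0.770 in the 7 longer ones, 0.900 in males and 0.791 in females. With the group means taken over the shorter libraries alone, it was 0.830.

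The rats at the ends of this relation also had the highest and the lowest Hspb1 for their group. Intact male 6 had 81.4 CPM of Hspb1 and a summed level of the motor neuron list of 7386 CPM, the highest of all rats. Intact female 1 had 54.4 CPM and 4535 CPM, the lowest of the 6 intact females in both. Nefh, the heavy neurofilament chain, was the most abundant gene of the list, with means of 4896 CPM in intact and 4005 CPM in GDX males, and so made up most of the sums. Summed levels averaged 5568 ± 1123 CPM in intact and 4646 ± 325 CPM in GDX males, and 5731 ± 667 CPM in intact and 4685 ± 523 CPM in OVX females (SD). The mean log2 level of the list, in which each gene counts alike, was 4.36 in intact and 4.36 in GDX males, and 4.54 in intact and 4.31 in OVX females. In males this mean over all 12 genes thus hardly differed. Over the 10 genes of the list tested in males, the median log2 fold change was -0.12, with 2 above 0 and 2 called lower. In tissue of mixed cells, fewer cells of a type and less RNA per cell cannot be told apart. Of the 12 genes, Uts2b was at 0 in intact males, and Uts2b and Mmp9 had at most 2 and 13 reads in any library.

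Within the list, Hspb1 followed Prph (r = 0.900), Nefh (0.859) and Slc18a3 (0.826), genes of the peripheral neuron filament, the heavy neurofilament and the vesicular acetylcholine transporter. It followed Chat (0.679) and Isl1 (0.452) less closely, and it did not follow Mmp9 (-0.086), as a description over 22 rats. The share of motor neuron tissue in Hspb1 differences between groups was not tested beyond a fit with the list mean as a term. With that term, chosen after the relation was seen, the log2 fold change of Hspb1 was 0.014 (SE 0.064) in males, 0.023 (SE 0.067) in females and -0.12 (SE 0.067, adjusted p = 0.467) in intact males against intact females. In GDX males against OVX females it was -0.16 (SE 0.055, adjusted p = 0.432), farther from 0 than without the term.

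**Figure D5:**
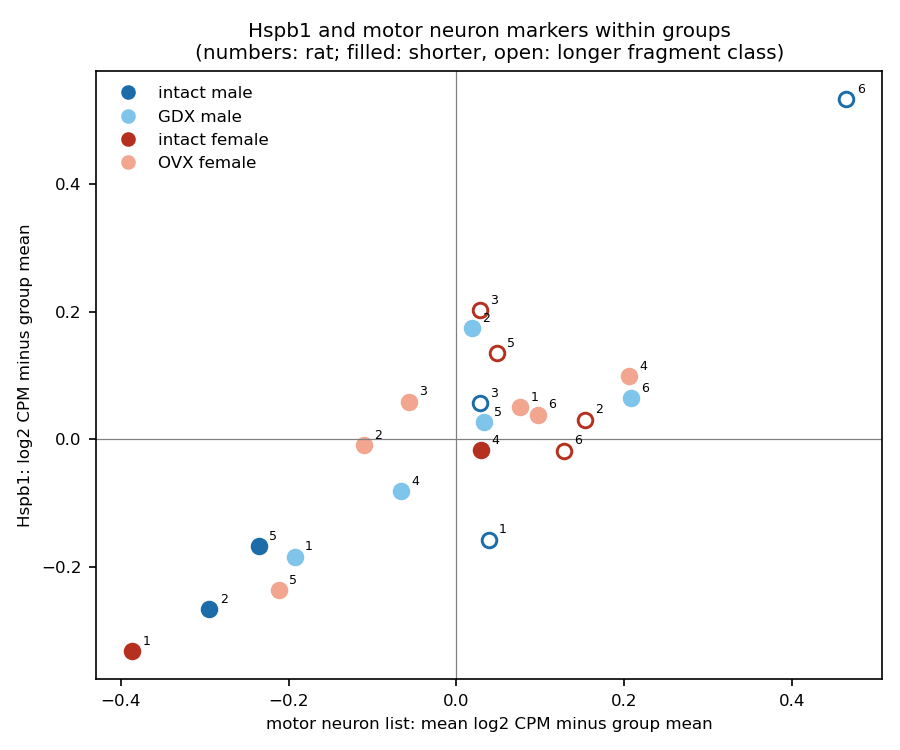
Hspb1 against the mean log2 level of the motor neuron list in 22 rats, each as a difference from its group mean. Points are rats, filled for the shorter and open for the longer fragment class. The measures go together (r = 0.857), with intact male 6 at the upper right and intact female 1 at the lower left.

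Genes most like each member were sought among 15552 other expressed genes, by Pearson's r over the 22 rats after subtraction of group means. Hspa5 was most like Calr (r = 0.789, rho = 0.793), the calcium-binding chaperone calreticulin of the same compartment, then Fam162a (0.775) and Nbn (0.752). Hspa8 was most like Rufy3 (0.796), Caprin2 (0.786) and Yes1 (0.764), and Hspd1 was most like Rtn4 (0.867), Chrm2 (0.858) and Arfgef1 (0.809). Hspa1b was most like Agrn (0.793), Unc13a (0.788) and Acad10 (0.770), at 16 reads or fewer. Within the 15 shorter libraries these 12 relations had r from 0.765 to 0.881, and within the 7 longer ones from 0.399 (Hspa1b with Acad10) to 0.925. The ranks moved more: in a search of the shorter libraries alone, 0 of the 3 first genes were the same for Hspa5, Hspa8 and Hspd1, and 1 of 3 for Hspa1b. The other members were looked at after their values were seen. Hspb1 was most like Prph (0.900), Trpv2 (0.890) and Nefl (0.882), the last a neurofilament chain. Hsph1 was most like Map9 (0.827) and Dnaja1 (0.812), an Hsp40 protein, and Hspe1 was most like Rps7 (0.849), a ribosomal protein. Within the shorter libraries r was 0.842, 0.795 and 0.804 for these 3 genes of Hspb1, 0.821 and 0.756 for those of Hsph1 and 0.900 for Rps7. In a search of those libraries alone, other genes took the first 3 ranks for Hspb1 and Hsph1, while Rps7 remained first for Hspe1.

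The other chaperones were followed with 9 lists of 117 genes, of which 116 were in the table. In males 109 were tested and 11 were called after gonad removal (10.1%, with 13.4% of all genes), 4 higher and 7 lower. The share was near the background. The single lists, given below, are small, and with 6.78% of all genes higher and 6.58% lower their counts were not tested against it. Among the other Hsp70 and Hsp110 genes, 2 of 7 rose and 1 fell. Hspa2, an Hsp70 known from male germ cells, rose from 101.6 ± 7.83 to 134.8 ± 17.9 CPM (SD, n = 5 each). Its log2 fold change was 0.40 ± 0.080 (adjusted p = 0.00951), and all 5 GDX rats were above the intact mean. Hspa12b, a member expressed in blood vessel endothelium, rose from 4.96 ± 0.765 to 7.25 ± 0.679 CPM (log2 fold change 0.54 ± 0.13, adjusted p = 0.0216), without overlap. Hspa12a, its close relative, fell from 268 ± 26.4 to 225 ± 18.5 CPM (log2 fold change -0.26 ± 0.067, adjusted p = 0.0288), again without overlap.

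Among the Dnaj co-chaperones 4 of 17 fell and 0 rose (6.58% and 6.78% of all genes), with a list median of -0.053. Dnajc6 (auxilin), which uncoats clathrin vesicles with Hspa8, fell from 146 ± 3.70 to 128 ± 5.47 CPM (log2 fold change -0.19 ± 0.040, adjusted p = 0.0115), and the groups did not overlap. Dnajb5 and Dnajc27 had log2 fold changes of -0.27 ± 0.074 (adjusted p = 0.0378) and -0.16 ± 0.053 (adjusted p = 0.0744), with all 5 GDX rats below the intact mean for each. The fourth was Dnajc5, the vesicle protein CSP-alpha, named after its values were seen (-0.12 ± 0.042, adjusted p = 0.0949). The exchange factor Hspbp1 fell, as 1 of 8 in its list, from 26.8 ± 0.923 to 22.8 ± 0.986 CPM (-0.24 ± 0.055, adjusted p = 0.0180), without overlap. In the mitochondrial list 1 of 13 fell, the protease Afg3l2 (-0.20 ± 0.049, adjusted p = 0.0201), also without overlap.

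Of the endoplasmic reticulum genes 2 of 26 rose and 0 fell, with a list median of 0.041, where Hspa5 itself was not called. Creld2, which is induced by stress of the reticulum, rose from 13.7 ± 1.21 to 17.1 ± 0.995 CPM (log2 fold change 0.31 ± 0.077, adjusted p = 0.0225). Pdia3, a disulfide isomerase, rose from 159 ± 6.88 to 176 ± 7.73 CPM (0.14 ± 0.045, adjusted p = 0.0630), and neither gene's groups overlapped. Among the immediate early genes 1 of 10 rose, Egr1 (0.42 ± 0.14, adjusted p = 0.0872), with all 5 GDX rats above the intact mean. By edgeR, DESeq2 and the exact test, 0 genes were called of 5 heat shock factors (list median 0.0034), 4 small heat shock proteins (0.061), 15 Hsp90 co-chaperones (-0.033), 6 steroid receptors (0.032), 14 TRiC and prefoldin subunits (0.025) and 2 cold-inducible genes (0.087). By edgeR, 1, 1, 1, 1, 2 and 0 of them had an unadjusted p under 0.05, with 23.8% of all genes.

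These calls moved with the libraries. Of the 11 genes named by rule, Egr1 included, 4 were called with fragment class as a term and 1 (Dnajc27) with the shorter class only. With RNA integrity number as a term 8 were called (not Dnajb5, Dnajc27 and Egr1), with the replicate block 5, and without a filter 9. Over 11 other settings log2 fold changes ran from 0.32 to 0.51 for Hspa2, 0.51 to 0.84 for Hspa12b and -0.28 to -0.0085 for Hspa12a. They ran from -0.20 to -0.13 for Dnajc6, -0.33 to -0.15 for Dnajb5, -0.25 to -0.13 for Dnajc27 and -0.29 to -0.20 for Hspbp1. The ranges were 0.26 to 0.32 for Creld2, 0.090 to 0.21 for Pdia3, -0.21 to -0.14 for Afg3l2 and 0.30 to 0.64 for Egr1. With the meninges and fibroblast mean as a term, none of the 11 kept its call, and 5 of all genes were called. This mean itself differed between the groups, at 2.84 ± 0.43 in intact and 4.36 ± 0.60 in GDX males (log2 CPM, SD). Its part and that of gonad removal can thus hardly be told apart, and the lost calls do not separate them. All 11 kept their sign. With the term the log2 fold changes were 0.51 for Hspa2, 0.84 for Hspa12b, -0.29 for Hspbp1 and 0.64 for Egr1, each farther from 0 than without it. They were 0.26 for Creld2, 0.090 for Pdia3, -0.13 for Dnajc6, -0.15 for Dnajb5, -0.13 for Dnajc27, -0.14 for Afg3l2 and -0.0085 for Hspa12a, each nearer 0. Leaving out 1 rat ended the call of Dnajc27 for intact males 2, 3 and 5 and GDX males 5 and 6 (adjusted p up to 0.176). It ended that of Pdia3 for intact males 2 and 5 and GDX males 4, 5 and 6 (up to 0.148), and that of Egr1 for intact males 1, 3, 5 and 6 and GDX males 1, 2 and 5 (up to 0.197).

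Markers of some other cell types moved with gonad removal in males. All 9 meninges and fibroblast genes rose (median log2 fold change 1.60), and their summed level was 121 ± 47.6 CPM in intact and 376 ± 146 CPM in GDX males, and 299 ± 129 CPM in intact and 373 ± 75.5 CPM in OVX females (SD). Col1a1 was the most abundant, and no gene of the list was at 0. Of the endothelial genes 7 of 8 rose (median 0.51) and of the pericyte and smooth muscle genes 4 of 8 rose (0.46). Of the Schwann cell, erythroid, astrocyte, oligodendrocyte and microglia genes 2 of 4, 2 of 2, 3 of 9, 2 of 9 and 1 of 9 rose. Of all genes 6.78% rose and 6.58% fell, and the counts of these small lists were not tested against those shares. The lists were chosen with earlier results of these data known. Of the pan-neuronal genes 4 of 8 fell (median -0.17), and of the motor neuron genes 2 of 10 fell (-0.12). Of 4 ependymal and 3 skeletal muscle genes 0 were called by edgeR, DESeq2 or the exact test, with 1 and 0 at an unadjusted p under 0.05 by edgeR. The part of these cell types in the chaperone results was not tested beyond the term above.

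In females 0 of 108 tested genes of the 9 lists were called by edgeR, DESeq2 or the exact test, with 7 of 108 at an unadjusted p under 0.05 by edgeR, and 10.2% of all genes. Of the endothelial genes 2 of 8, Kdr and Cd93, rose in OVX females (log2 fold changes 0.77 and 0.99, adjusted p = 0.0966 and 0.0999), named after their values were seen, as 2 of the 5 called among 14910 genes (0.0335%). Both calls ended without OVX female 1, without OVX female 6 and with the replicate block, where 0 of all genes were called. With fragment class as a term or the shorter class only, 1 of the 5 genes was still called. The largest median among the 9 lists was -0.050, for the mitochondrial list, with -0.0063 over the 9. In intact males against intact females 3 of 108 were called (2.78%, with 4.01% of all genes), all lower in males. Hspb6 (Hsp20), a small heat shock protein known from muscle, had 15.1 ± 1.08 CPM in males (n = 5) and 18.7 ± 1.13 CPM in females (n = 6), with no overlap. Its log2 fold change was -0.30 ± 0.068 (adjusted p = 0.0268). Fkbp5, a glucocorticoid-induced co-chaperone of Hsp90, had 23.7 ± 2.23 and 32.7 ± 6.59 CPM (-0.46 ± 0.12, adjusted p = 0.0558). Dnaja4 had 100.7 ± 3.79 and 113 ± 6.43 CPM (-0.16 ± 0.043, adjusted p = 0.0756).

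Of the immediate early genes 1 of 10 tested, Dusp1, was lower in intact males too. It had 6.52 ± 0.703 and 10.4 ± 3.19 CPM (log2 fold change -0.67 ± 0.18, adjusted p = 0.0676). All 5 males were below the female mean for Hspb6, Fkbp5, Dnaja4 and Dusp1. None of the 4 was called by edgeR with the shorter class only or with the meninges and fibroblast mean as a term, and 1 (Hspb6) was with the motor neuron mean as a term. The meninges and fibroblast mean itself differed here, at 2.84 ± 0.43 in intact males and 4.12 ± 0.55 in intact females (log2 CPM, SD). With the replicate block Fkbp5 and Dusp1 were called, and Hspb6 and Dnaja4 were not. With the shorter class only, the log2 fold changes of Hspb6, Fkbp5, Dnaja4 and Dusp1 were -0.38, -0.11, -0.095 and -0.076. With the meninges term they were -0.13, -0.66, -0.13 and -0.94, and with the motor neuron term -0.29, -0.37, -0.12 and -0.60. The sign of all 4 was thus kept in each, while the size was not. The call of Dnaja4 ended without intact male 1, 2 or 5 or intact female 2, 3, 5 or 6 (adjusted p up to 0.182). That of Fkbp5 ended without intact male 1 or 5 or intact female 3 or 5 (up to 0.150), and that of Dusp1 without intact male 1, 2, 3 or 6 or intact female 2, 3 or 5 (up to 0.162). In this comparison 7 of 9 meninges and fibroblast genes (median -1.28) and 3 of 4 Schwann cell genes were lower in males, with 2.56% of all genes. The counts of these small lists were not tested against that share. In GDX males against OVX females, and for the interaction, 0 of 109 chaperone genes were called by edgeR, with 6 and 9 at an unadjusted p under 0.05. Of all genes 0.232% and 0.116% were called, and 9.37% and 11.6% had an unadjusted p under 0.05. DESeq2 called 0 in both, and the exact test 0 in the former.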

How the data were processed

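Gene counts for 22 libraries were deposited by the authors as raw counts, with 1 library per rat. The deposited processing notes name FastQC, TopHat2 2.0.13, Subread and edgeR with Rnor_6.0, whereas the study's methods name Hisat2. The notes name an Illumina TruSeq kit and the methods a stranded total RNA kit. Settings for strand and for reads that match several genes are not given in the sources used here. Counts were tested in R 4.3.3 with edgeR 4.0.16 (filterByExpr, TMM factors, quasi-likelihood test, adjusted p by Benjamini-Hochberg over all genes tested, called under 0.1), and DESeq2 1.42.0 was an alternative. The code was tested on simulated data. The 5 comparisons and the gene groups were as in the report. Correlations used log2 CPM with a prior count of 2 minus group means, with 100000 two-sided permutations within groups (smallest possible p 1e-05).

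Named genes were the 10 members in the male and female comparisons, the member with the smallest p in the others, and up to 3 genes called in each direction from each of 12 pathway lists. For Hspa1b, Hspa5, Hspa8 and Hspd1 the 3 most alike genes were named. The pathway lists were heat shock factors, other Hsp70 and Hsp110 chaperones, Dnaj co-chaperones, small heat shock proteins, nucleotide exchange factors, Hsp90 co-chaperones, steroid receptors, reticulum genes, mitochondrial genes, TRiC and prefoldin, immediate early genes and cold-inducible genes. The 12 cell type lists were motor neuron, pan-neuronal, astrocyte, oligodendrocyte, microglia, endothelial, pericyte and smooth muscle, meninges and fibroblast, Schwann cell, ependymal, erythroid and skeletal muscle. Members and lists were chosen with earlier results of these data known. Alternatives were DESeq2, the edgeR exact test, RLE factors, no filter, all 22 rats in 1 fit, terms for fragment class, RNA integrity number, meninges and fibroblast mean or motor neuron mean (the last chosen after seeing the data), the shorter class only, a replicate block, each rat left out, and for correlations a prior count of 0.5. No library was left out.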

Additional observations from a re-analysis of the deposited data

Results flagged for a closer look

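Each gene was searched in each group for a rat far from the others, with Dixon's test at the 95% level, and 2 of 40 groups held one. Chance gives about 1 in 20. Hspb1 was at 52.63 CPM (654 reads) in OVX female 5, below the other 5 OVX females at 61.7 to 66.4 CPM. Hspe1 was at 46.89 CPM (647 reads) in intact female 4, above the other 5 intact females at 37.5 to 40.6 CPM.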

How the results depend on the processing

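In all 51 fits under other settings that left out no single rat, edgeR and DESeq2 called 0 members. With 1 rat left out, members called ran from 0 to 2 in males (Hsp90aa1 and Hspa5 without GDX male 1, Hspe1 without GDX male 2), from 0 to 1 in intact males against females (Hspb1 without intact male 6), and were 0 in the other 3 comparisons. Of 226 member fold changes under other settings 207 kept their sign and side of the threshold and 19 turned. These cover every tested member in males and in females, and only the named member in each of the other 3 comparisons. Turns of other members there were not counted, such as Hspd1 in GDX males against OVX females (from -0.0073 to 0.00011 with the replicate block). In males Hspb1 became 0.23 with fragment class as a term, 0.23 with the shorter class only, 0.17 with the meninges and fibroblast mean and 0.014 with the motor neuron mean. Hspd1 became 0.078, 0.079 and 0.041 under the first 3 of these, and Hsp90ab1 0.0080 with the meninges and fibroblast mean. In females, with fragment class as a term, the shorter class only and the motor neuron mean, Hsp90aa1 became -0.18, -0.18 and -0.094, Hspb1 0.031, 0.027 and 0.023, and Hspe1 -0.063, -0.067 and -0.0081. Hspd1 became 0.036 with the motor neuron mean. None of these had an adjusted p under 0.1, and the cause was not tested. Of the values counted, none turned with RLE factors. With 1 rat left out, Hspb1 in males ran from -0.079 to 0.14 (above 0 without intact male 6 or GDX male 1 or 4) and Hspd1 from -0.046 to 0.034 (above 0 without intact male 6). In females Hsp90aa1 ran from -0.040 to 0.20 and Hspe1 from -0.012 to 0.085 (below 0 without OVX female 3), and Hspd1 from -0.045 to 0.0091 (above 0 without OVX female 5 or 6).

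All genes called moved more. In males they were 796 with fragment class as a term, 440 with the shorter class only, 1262 with RNA integrity number and 5 with the meninges and fibroblast mean, and 1202 (without GDX male 5) to 2446 (without GDX male 1) with 1 rat left out. In females they were 174 by DESeq2, 95 by the exact test, 11 without a filter, 9 with all 22 rats, 3 with fragment class and 11 with RNA integrity number. With 1 rat left out they ran from 0 (OVX female 1 or 6) to 113 (intact female 1). In intact males against females they were 34 with the shorter class and 18 with the meninges and fibroblast mean, and 352 (without intact male 1, with 385 without intact male 5) to 777 (without intact female 1). In GDX males against OVX females they were 136 by DESeq2, 88 by the exact test, 61 with all 22 rats and 236 with the meninges and fibroblast mean, and 23 (without OVX female 1) to 44 (without GDX male 1). For the interaction they were 247 by DESeq2, 33 without a filter, 6 with fragment class, 5 with the shorter class, 5 with RNA integrity number and 1 each with the meninges and fibroblast mean and the motor neuron mean, and 1 (without GDX male 5) to 275 (without GDX male 1). Fewer libraries enter the fits with the shorter class, and for the rest the cause was not tested. Of 165 values of called list genes under other settings 52 lost the call, and of 154 with 1 rat left out 35 did, all with their sign kept.

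With rat number as a replicate block, the Hspb1 fold change in males became 0.040, and all genes called became 1274 in males, 0 in females, 255 in intact males against females and 0 for the interaction. Rats of the same number did not resemble each other, with correlations of -0.0771 to 0.00099 over 4 male pairs and -0.0579 to 0.0310 over 6 female pairs.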
